A study of Mus musculus with 8 samples.

Results

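Glucose uptake and glycolysis were examined in bone marrow-derived macrophages (BMDMs) through 10 genes named for their place in the pathway. They were the glucose transporters Slc2a1 and Slc2a3, the enzymes Hk2, Aldoa, Tpi1, Pgk1, Eno1, Pkm and Ldha, and the kinase Pdk1, out of 55357 genes in the count table. BMDMs are macrophages grown in culture from marrow, here of C57BL/6J wild-type mice with 10 ng/ml M-CSF over 5 to 6 days. The So(d18:1) group received 2 μM sphingosine in methanol and the control group methanol alone, both for 6 h, with 4 libraries of poly(A) RNA in each group. So(d18:1) is sphingosine, a long-chain amino alcohol from the breakdown of sphingolipids. The labels name no inflammatory stimulus, although the text of the study speaks of one, and no genetic change was made in either group. The study describes its samples as biologically independent and the labels name no separate animals or cultures, so the p-values measure the spread between these libraries, which may be technical in part.

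Glucose enters the cell through carriers of the Slc2a family and is trapped by hexokinases as glucose 6-phosphate, which the enzymes of glycolysis then split and oxidise to pyruvate. Lactate dehydrogenase turns pyruvate into lactate, and pyruvate dehydrogenase kinases hold back its entry into the mitochondria. Many of these genes are classical targets of HIF-1α, the hypoxia-inducible factor that drives glycolysis in activated macrophages, and the study asked how So(d18:1) affects transcription by hypoxia-inducible factors. It reported that So(d18:1) inhibited HIF-2α, while HIF-1α signalling was unchanged.

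Library totals ran from 17748397 to 26088609 counts (median 22926576). Of all genes, 14514 had enough counts to be tested, and all 10 genes of interest were among them, with 360 counts or more in every library. The cells carried the markers of macrophages, since all 8 listed markers were above a mean of 1 CPM (counts scaled to a common library total), with a summed level of 30334 to 32734 CPM in control and 26198 to 31090.3 CPM in So(d18:1) libraries. Of these, Cd68 and Mertk fell and Itgam rose with So(d18:1) by edgeR's test at an adjusted p under 0.05. By that test 5.07% of all tested genes fell and 3.87% rose. Neutrophil markers were also present, and all 8 had lower fitted values with So(d18:1). By the test 4 of them fell, beside the same 5.07% of all tested genes. The summed level of the 8 neutrophil markers was 1105 to 1513 CPM in control and 859 to 964 CPM in So(d18:1) libraries. Lymphocyte markers summed to 4.06 to 6.75 CPM in control and 2.49 to 3.42 CPM in So(d18:1) libraries. Of these 7 markers 4 were tested, all with lower fitted values (log2 fold changes of -1.04 to -0.70) and an unadjusted p under 0.05, and 1, Nkg7, fell after adjustment. Over all 14514 tested genes, 3393 had an unadjusted p under 0.05. The sums were 5.56 to 8.13 CPM for dendritic cell, 6.17 to 10.4 CPM for fibroblast and 0.673 to 1.45 CPM for erythroid markers over all 8 libraries. Of these, 4 of 6 dendritic cell and 5 of 7 fibroblast markers were tested and none passed edgeR's test, with 1 in each list at an unadjusted p under 0.05, and no erythroid marker had enough counts to be tested. No marker of any list was at 0 in every library. The part of these other cells in the values below was not tested, and fewer cells of a type cannot be told apart from less RNA per cell in such bulk samples.

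The control of these genes by hypoxia-inducible factors is usually placed at a short core in their promoters, so the 250 bases before the start of 4 of them are shown. The genes were taken to cover both transport and the lower steps of the pathway. Sequences are from RefSeq (GRCm38.p6), written 5′ to 3′ on the strand of the gene, with each match to ACGTG or GCGTG on either strand in capitals. A match on the opposite strand reads CACGT or CACGC, and CACGTG holds ACGTG on both strands.
Slc2a1, chr4:119108495-119108744, plus strand: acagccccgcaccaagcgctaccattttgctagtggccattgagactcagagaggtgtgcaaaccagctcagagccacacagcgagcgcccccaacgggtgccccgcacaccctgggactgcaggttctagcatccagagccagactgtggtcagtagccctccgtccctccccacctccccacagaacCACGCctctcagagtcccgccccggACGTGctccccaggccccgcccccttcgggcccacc
Pgk1, chrX:106186850-106187099, plus strand: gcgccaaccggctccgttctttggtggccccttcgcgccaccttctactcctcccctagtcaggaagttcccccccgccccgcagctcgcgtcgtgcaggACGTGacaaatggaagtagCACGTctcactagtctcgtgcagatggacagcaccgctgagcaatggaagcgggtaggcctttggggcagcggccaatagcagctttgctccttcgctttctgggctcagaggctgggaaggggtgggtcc
Pkm, chr9:59656326-59656575, plus strand: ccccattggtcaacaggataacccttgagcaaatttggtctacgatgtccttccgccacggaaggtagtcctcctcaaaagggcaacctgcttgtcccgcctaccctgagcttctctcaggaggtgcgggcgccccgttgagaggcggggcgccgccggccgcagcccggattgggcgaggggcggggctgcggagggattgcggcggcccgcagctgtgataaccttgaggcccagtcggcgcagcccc
Ldha, chr7:46845554-46845803, plus strand: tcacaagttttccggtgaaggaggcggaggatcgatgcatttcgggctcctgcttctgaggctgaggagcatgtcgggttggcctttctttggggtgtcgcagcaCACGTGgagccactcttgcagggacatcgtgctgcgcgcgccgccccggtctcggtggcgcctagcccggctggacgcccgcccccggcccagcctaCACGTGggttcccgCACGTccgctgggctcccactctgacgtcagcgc

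RefSeq windows of 300 bases (250 before and 50 after a start) were found for 9 of the 10 genes. Slc2a3 had none. Some genes have more than 1 start, which gave 16 windows, of which 12 held at least 1 match, and the window of Tpi1 held none. Windows 2 and 3 of Aldoa overlap, as do windows 2 and 3 of Eno1, so the same matches were counted in both. By gene, 8 of the 9 held a match in any window. Whether this exceeds the share over all windows was not tested. The share of all 32851 promoter windows of this length with a match was 43.8%, with 19.6% for ACGTG and 32.4% for GCGTG. In the first of the windows of Ldha, 5 matches to ACGTG and 2 to GCGTG were counted, with each CACGTG counted on both strands, and in its other window 2 to GCGTG. The window of Pgk1 held 2 matches to ACGTG. The first window of Pkm held none, and its other one held 2 matches to ACGTG.

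With So(d18:1), 3 of the 10 genes changed by edgeR's quasi-likelihood test at an adjusted p under 0.05, where 8.94% of all tested genes did. Pgk1 and Pkm rose, where 3.87% of all tested genes rose, and Slc2a3 fell, where 5.07% fell. The changes were small, from a level 15.6% lower for Slc2a3 to 17.0% higher for Pkm, and no gene reached a fold change of 1.5 together with an unadjusted p under 0.05, a rule met by 3.89% of all tested genes. In the same 3 genes every So(d18:1) library lay outside the range of the control libraries, which held for 15.0% of all tested genes (7.14% above and 7.87% below). The fitted value was higher with So(d18:1) in 7 genes and lower in 3, with a median log2 fold change of 0.11 over the 10 genes and 0.0036 over all tested genes. In size the log2 fold changes had a median of 0.15, beside 0.11 over all tested genes. With a library left out, the number of genes called was 1 without control replicate 2 or So(d18:1) replicate 4, 5 without control replicate 3, and 2 without any of the other 5 libraries.

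**Figure D1:**
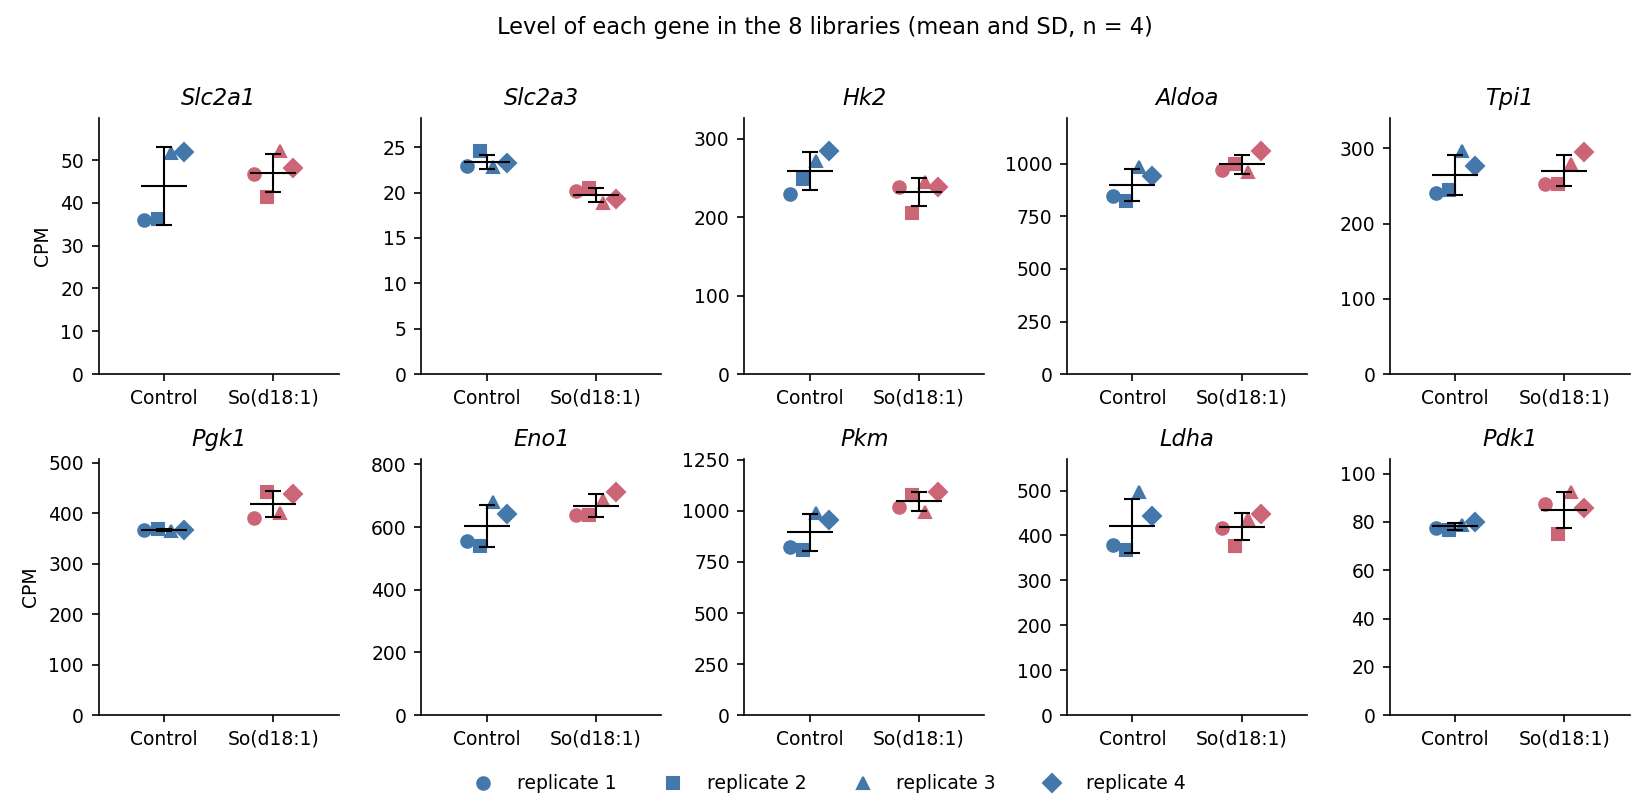
CPM (y axis, from 0) of the 10 genes in the 4 control and 4 So(d18:1) libraries. Points are libraries, marked by replicate number, and bars are mean ± SD (n = 4). The groups are apart for Slc2a3, Pgk1 and Pkm, and control replicates 3 and 4 lie above replicates 1 and 2 in 8 of the panels.

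Of the transporters, Slc2a1 (ENSMUSG00000028645, chromosome 4, 119108711 to 119137983) encodes GLUT1, the basal glucose carrier of most cells. Its level was 36.0, 36.3, 51.7 and 52.0 CPM in control replicates 1 to 4, and 46.7, 41.3, 52.1 and 48.1 CPM in So(d18:1) replicates 1 to 4. The control libraries thus fell into a low and a high pair, and all but 1 of the So(d18:1) libraries lay between them. The group means were 44.0 ± 9.05 for control and 47.0 ± 4.45 CPM for So(d18:1) (SD, n = 4 each). The log2 fold change was 0.094 (standard error 0.15, edgeR adjusted p = 0.772), with a 95% interval of -0.26 to 0.45, so a change up to that size in either direction was not resolved by these libraries. Control replicates differed among themselves by up to 1.44-fold, while the ratio of the group means was 1.07. An exon of Slc2a1 overlaps Gm12868 on the other strand, which held at most 7 counts in a library.

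Slc2a3 (ENSMUSG00000003153, chromosome 6, 122727809 to 122801640) encodes GLUT3, a carrier of high affinity for glucose. It had 22.9, 24.6, 22.8 and 23.2 CPM in control replicates 1 to 4, and 20.2, 20.5, 18.9 and 19.3 CPM with So(d18:1). Each So(d18:1) library was below each control library. The log2 fold change was -0.24 (standard error 0.067, edgeR adjusted p = 0.0265), and the exact permutation test of CPM gave p = 0.0286, the smallest that 4 against 4 libraries allow. The call of Slc2a3 held in 3 of the 8 fits with 1 library left out. It was lost without control replicate 1, 2 or 4 and without So(d18:1) replicate 3 or 4, where the adjusted p reached 0.0728 (replicate 3 of So(d18:1)), and it held under all 12 other alternatives (adjusted p of edgeR, DESeq2 or limma from 0.0177 to 0.0455).

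The first step of glycolysis was represented by Hk2 (ENSMUSG00000000628, chromosome 6, 82725025 to 82774454), the inducible hexokinase that binds to mitochondria. Its level was 230, 248, 272 and 284 CPM in the control and 238, 205, 245 and 239 CPM in the So(d18:1) libraries, in order of replicate. All So(d18:1) libraries lay below the control mean, but only replicate 2 lay below the lowest control. The log2 fold change of -0.16 (standard error 0.069, 95% interval -0.31 to -0.0094) did not pass after adjustment over all genes (edgeR adjusted p = 0.186). Without control replicate 1 it passed, with -0.21 (edgeR adjusted p = 0.0493), while its adjusted p reached 0.397 without So(d18:1) replicate 2.

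Aldoa (ENSMUSG00000030695, chromosome 7, 126795234 to 126800751) encodes the aldolase that splits fructose 1,6-bisphosphate into a pair of triose phosphates, and Tpi1 (ENSMUSG00000023456, chromosome 6, 124810586 to 124814296) the isomerase that interconverts them. Aldoa was counted at 845, 825, 985 and 944 CPM in control replicates 1 to 4 and at 969.7, 998, 962 and 1060.4 CPM in So(d18:1) replicates 1 to 4. Only So(d18:1) replicates 2 and 4 exceeded the highest control, and the log2 fold change of 0.15 (standard error 0.054, 95% interval 0.036 to 0.26) did not pass (edgeR adjusted p = 0.0952). Without control replicate 3 it passed, with 0.20 (edgeR adjusted p = 0.0227), and the adjusted p reached 0.238 without So(d18:1) replicate 4. Tpi1 stood at 241, 245, 296 and 277 CPM in control replicates 1 to 4 and 253, 253, 279 and 295 CPM in So(d18:1) replicates 1 to 4. The ranges of Tpi1 were nearly the same in both groups, and its log2 fold change was 0.030 (standard error 0.070, 95% interval -0.12 to 0.18, edgeR adjusted p = 0.852). Exons of Aldoa and Tpi1 overlap Fam57b and Spsb2 on the other strand, and the strand setting of the counting is not given in the sources used here.

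Pgk1 (ENSMUSG00000062070, chromosome X, 106187100 to 106203699) encodes phosphoglycerate kinase, the first enzyme of the pathway to yield ATP. The control libraries had 367, 369, 365 and 367 CPM and those with So(d18:1) had 391, 441, 400.4 and 438 CPM. All control values were nearly equal, and So(d18:1) replicates 2 and 4 were the highest. The SD of Pgk1 was 0.448% of its mean in control, below the 1.08% that counting alone gives, and 6.16% in So(d18:1) libraries. Its log2 fold change was 0.19 (standard error 0.045, edgeR adjusted p = 0.0117; exact permutation test of CPM, p = 0.0286). The call was lost in 1 of 8 fits with a library left out, without So(d18:1) replicate 2 (log2 fold change 0.16, edgeR adjusted p = 0.0576), and held under the 12 other alternatives. Stretches of 50 bases found in other genes made up 53.9% of the Pgk1 transcript, most of them in the pseudogene Pgk1-rs7, which had 13 to 45 counts in a library against 6964 to 11282 for Pgk1. How reads with several matches were treated is not given in the sources used here, so the level of Pgk1 is uncertain.

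Further down the pathway, Eno1 (ENSMUSG00000063524, chromosome 4, 150236721 to 150248879) encodes the enolase of most tissues, which makes phosphoenolpyruvate. It had 555, 540.2, 678 and 641 CPM in control replicates 1 to 4 and 637, 639, 685 and 711 CPM in So(d18:1) replicates 1 to 4. Every So(d18:1) library was above the control mean, but the highest control, replicate 3, lay above So(d18:1) replicates 1 and 2. The log2 fold change of 0.15 (standard error 0.068, 95% interval -0.0016 to 0.29) did not pass (edgeR adjusted p = 0.218). Without control replicate 3 it was 0.21 and passed (edgeR adjusted p = 0.0325), with an adjusted p of 0.459 at the other end, without So(d18:1) replicate 4. Of the Eno1 transcript 26.0% was made of such shared stretches, mostly with Eno1b, which held 132 to 231 counts in a library.

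Pkm (ENSMUSG00000032294, chromosome 9, 59656368 to 59679375) encodes the muscle-type pyruvate kinase, which makes pyruvate and the second ATP of the pathway. The control libraries had 824, 809.5, 989 and 957 CPM and the So(d18:1) libraries 1021, 1079.8, 996 and 1091 CPM. No So(d18:1) library was as low for Pkm as any control, although So(d18:1) replicate 3 exceeded control replicate 3 by little. The log2 fold change was 0.23 (standard error 0.061, edgeR adjusted p = 0.0280; exact permutation test of CPM, p = 0.0286). The call held in 3 of 8 fits with a library left out. It was lost without control replicate 1 or 2 and without So(d18:1) replicate 1, 2 or 4, with an adjusted p of up to 0.114 (replicate 4 of So(d18:1)), whereas it reached 0.00296 without control replicate 3. The gene model Gm49759 overlaps an exon of Pkm on the same strand and held 1426 to 2008 counts in a library. Pkm stayed called with the counts of this and other near-identical genes added. The table gives 1 count per gene, so the M1 and M2 isoforms of pyruvate kinase were not separated.

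Ldha (ENSMUSG00000063229, chromosome 7, 46841475 to 46855627) encodes the subunit of lactate dehydrogenase that favours lactate formation. Its values were 378, 367, 496 and 444 CPM in control replicates 1 to 4 and 418, 378, 436 and 448 CPM in So(d18:1) replicates 1 to 4. All So(d18:1) libraries lay within the range of the control libraries. The log2 fold change was -0.0057 (standard error 0.10, 95% interval -0.24 to 0.23, edgeR adjusted p = 0.982), and its sign turned under several alternatives, scaling by library size alone among them (0.00098).

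Pdk1 (ENSMUSG00000006494, chromosome 2, 71873224 to 71903858) encodes a kinase that inactivates the pyruvate dehydrogenase complex. It had 77.3, 76.5, 78.8 and 79.7 CPM in control replicates 1 to 4 and 87.3, 74.8, 92.2 and 85.7 CPM in So(d18:1) replicates 1 to 4. So(d18:1) replicates 1, 3 and 4 were above every control, and replicate 2 was below every control. Without that library the log2 fold change of 0.12 (standard error 0.055, edgeR adjusted p = 0.185) became 0.18 and passed (edgeR adjusted p = 0.0377), and over all fits with a library left out the adjusted p went up to 0.402.

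**Figure D2:**
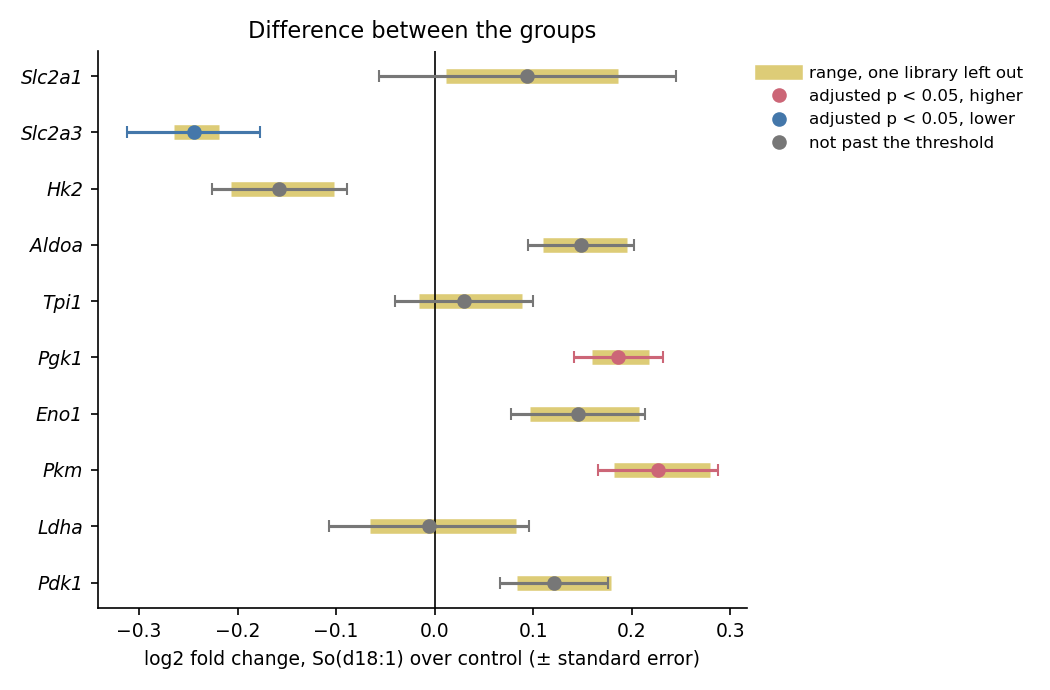
Log2 fold change of the 10 genes, So(d18:1) over control (x axis), with standard errors from edgeR as bars. Yellow bands give the range over the 8 fits with 1 library left out and colours mark genes past an adjusted p of 0.05. The bands of Tpi1 and Ldha cross 0.

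The spread between control libraries was set beside the difference between the groups. The ratio of the highest to the lowest control library exceeded the treatment fold, taken in its own direction, in 7 of the 10 genes. The former compares single libraries and the latter group means, so the measures are unlike. How many of all tested genes meet this was not tested, so it is not shown to be a trait of these genes. The SD relative to the mean was larger in control than in So(d18:1) libraries in 7 genes. The share of all tested genes for which this holds was not tested either. For Slc2a1 the control SD was 20.6% of the mean, at percentile 99.5 among the 6949 genes with a mean of at least 20 CPM, whose median was 4.87%. In So(d18:1) libraries the SD of Slc2a1 was 9.46% of the mean, at percentile 91.7, beside a median of 4.78%. The control SD was 14.3% for Ldha, 11.1% for Eno1 and 10.2% for Pkm. At the other end stood Pgk1, at percentile 0.173 of the control SDs, Pdk1 with 1.88% and Slc2a3 with 3.47%.

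This control spread had a common form. Control replicates 3 and 4 were the 2 highest controls in 8 of the 10 genes, all but Slc2a3 and Pgk1, where the same pair was highest in 25.8% of all tested genes. Control replicates 1 and 2 were the highest pair in 25.7% of all tested genes, and each remaining pair in 11.5% to 12.8%. Among 61 other tested genes of glucose metabolism, replicates 3 and 4 were highest in 30 and replicates 1 and 2 in 12. The median deviation of the 10 genes from the control mean was -0.11 in both replicate 1 and replicate 2, 0.14 in replicate 3 and 0.080 in replicate 4 on the log2 scale. Over all tested genes the control medians were at most 0.0013, which is near where TMM scaling sets them. In So(d18:1) libraries the median deviations were -0.020, -0.077, 0.045 and 0.066. So(d18:1) replicate 2 was the lowest of its group for Slc2a1, Hk2, Tpi1, Ldha and Pdk1, and the highest for Pgk1 and Slc2a3. Neutrophil markers moved with the same control libraries, with summed levels of 1124, 1105, 1513 and 1322 CPM in control replicates 1 to 4, and their part in the spread of these genes was not tested. The labels name no batch, and no groups were formed from this pattern.

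**Figure D3:**
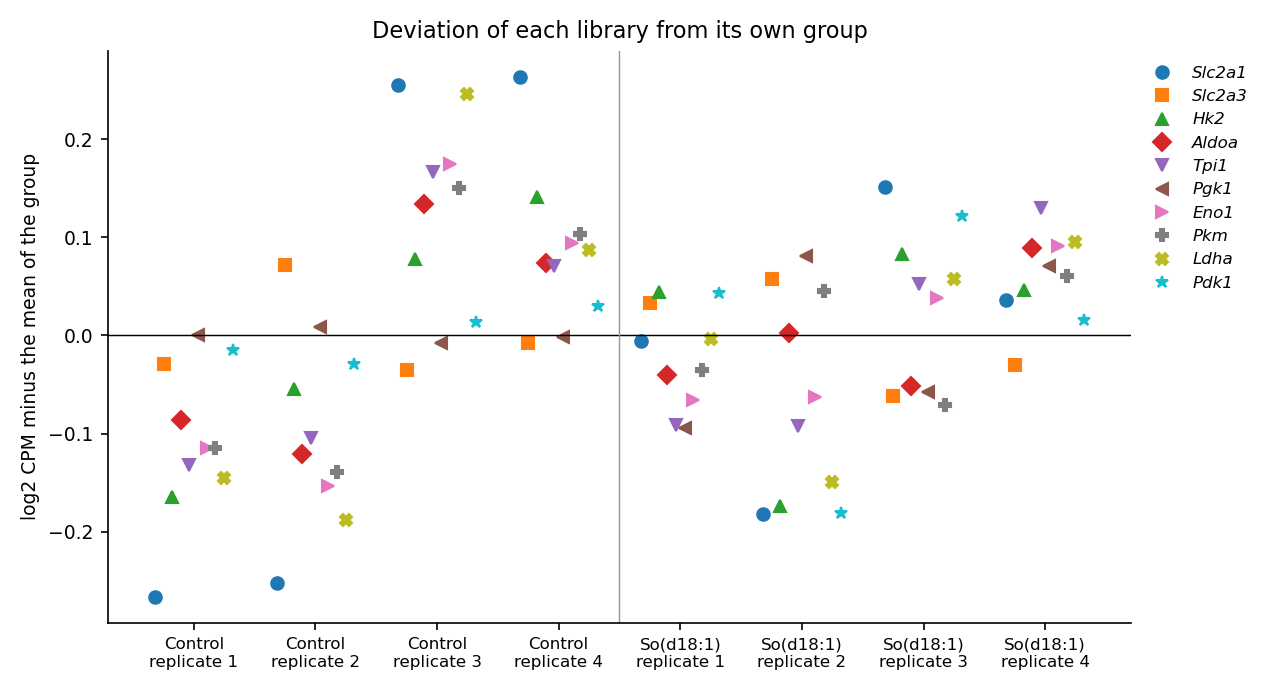
Log2 CPM of each gene in each library minus the mean of its own group (y axis), for the 8 libraries (x axis). Each marker is a gene. In control replicates 3 and 4 most genes lie above 0, with Slc2a1 farthest in both. Ldha comes next in replicate 3 and Hk2 in replicate 4, while Pgk1 stays near 0 in all control libraries.

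Levels can be compared between genes only per length, and were given on that scale as TPM, the counts divided by the length of the exons of a gene and scaled to a common total. In control libraries Aldoa was highest at 1074 ± 76.4 TPM, followed by Pkm at 622 ± 55.1, Pgk1 at 569 ± 10.7, Ldha at 442 ± 56.6, Eno1 at 389.97 ± 37.6 and Tpi1 at 334 ± 28.5 TPM (SD, n = 4 each). Hk2 followed at 150.4 ± 12.7 TPM, Slc2a1 at 43.6 ± 8.43, Pdk1 at 34.9 ± 0.435 and Slc2a3 at 11.2 ± 0.510 TPM (SD, n = 4 each). Of these 10 genes, the enzymes from Aldoa to Ldha thus stood above Hk2 and far above the transporters. The ranges of Pkm and Pgk1, of Ldha and Eno1, and of Eno1 and Tpi1 overlapped in control libraries, so the order of these neighbours was not settled. The order of the means was the same with So(d18:1), where the ranges of Ldha and Eno1 and of Slc2a1 and Pdk1 overlapped. With the length of the longest transcript in place of all exons, Eno1 took the third rank, Pgk1 the fifth, and Pdk1 stood above Slc2a1. The 10 genes together took 0.354% to 0.419% of the counts in control and 0.410% to 0.438% in So(d18:1) libraries, and these ranges overlapped.

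**Figure D4:**
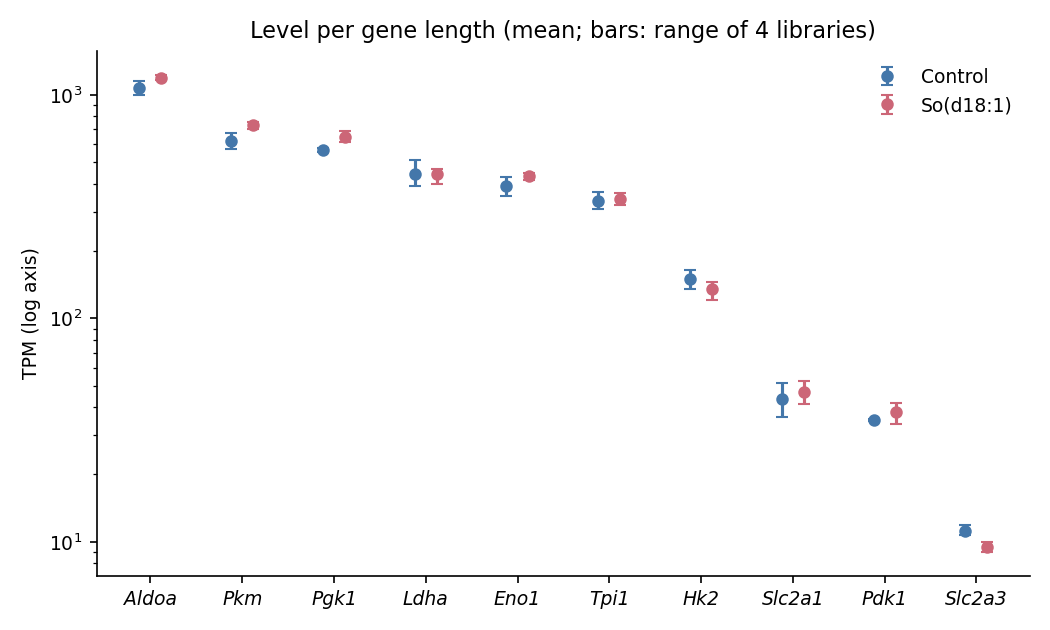
TPM of the 10 genes on a log axis, as means with bars for the range of 4 libraries, in control (blue) and So(d18:1) (red). Genes are ordered by the control mean, from Aldoa at 1074 to Slc2a3 at 11.2 TPM.

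The shares of related genes were also set on the TPM scale. Of the 2 transporters described, Slc2a1 made up 79.1% ± 3.73 in control and 83.0% ± 1.88 in So(d18:1) libraries (SD, n = 4 each). For lactate dehydrogenase, enolase and aldolase, a single isozyme held most of the level. Ldha made up 88.5% ± 0.574 of Ldha and Ldhb in control and 90.1% ± 1.34 with So(d18:1), Eno1 95.9% ± 0.233 and 96.9% ± 0.526 of the 3 enolases, and Aldoa 98.6% ± 0.359 and 98.4% ± 0.160 of the aldolases (SD, n = 4 each). Hexokinase was divided more evenly, and Hk2 made up 41.2% ± 2.54 of Hk1, Hk2 and Hk3 in control and 37.7% ± 2.28 with So(d18:1) (SD, n = 4 each). Hk3 had the highest level of the hexokinases, at 175 TPM in control and 181 TPM in So(d18:1) libraries, and its log2 fold change was 0.044 (edgeR adjusted p = 0.589). Hk1, the housekeeping hexokinase, was above each control in each So(d18:1) library, with a log2 fold change of 0.11 that did not pass (edgeR adjusted p = 0.190). The minor isozymes Aldoc (0.37, adjusted p = 0.0740), Eno2 (-0.48, adjusted p = 0.284), Eno3 (-0.27, adjusted p = 0.174) and Ldhb (-0.24, adjusted p = 0.163) did not pass edgeR's quasi-likelihood test. Aldoc passed the Wald test of DESeq2 and edgeR's exact and likelihood ratio tests, with no filter and with the replicate block, and Ldhb passed with no filter on low counts. The liver pyruvate kinase Pklr had no count in any library, and only Pkm was thus measured at that step.

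The kinases of pyruvate dehydrogenase differed from Pdk1 in their values. Pdk3 rose from 17.1, 18.2, 22.8 and 19.2 CPM in control replicates 1 to 4 to 26.9, 25.6, 25.7 and 26.6 CPM in So(d18:1) replicates 1 to 4. The groups did not overlap, and the log2 fold change was 0.44 (standard error 0.080, edgeR adjusted p = 0.00118), past the threshold with each library left out. Pdk2 rose with 0.24 (standard error 0.070, edgeR adjusted p = 0.0373), but its ranges overlapped and the call was lost in 4 of 8 fits with a library left out, without control replicate 3 or 4 or So(d18:1) replicate 2 or 4, and under upper quartile scaling and with thinned counts. Pdk4 had too few counts to be tested. The share of Pdk1 among the 4 kinases was 34.3% ± 1.03 in control and 31.2% ± 2.18 in So(d18:1) libraries (SD, n = 4 each). The differences in response between the kinases were not tested.

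Of 81 further genes of glucose metabolism, 61 were tested and 7 changed, where 8.94% of all tested genes did. Of these 6 rose, where 3.87% of all tested genes rose, and 1 fell, where 5.07% fell. Their median log2 fold change was 0.071, with 45 higher and 16 lower. Leaving out control replicate 4 lowered the count to 4, and leaving out So(d18:1) replicate 2 to 3. Among 19 other glycolysis enzymes, 14 were tested and 2 changed, beside the same 8.94%. Pgam2, a phosphoglycerate mutase, rose with a log2 fold change of 0.45 from 5.86 ± 0.753 to 8.005 ± 0.535 CPM (SD, n = 4 each; edgeR adjusted p = 0.0191), and its call was lost without control replicate 3 or So(d18:1) replicate 2. Per length Pgam2 stood at 24.3 TPM in control, under Pgam1 at 399 TPM, the highest of these enzymes, which had a log2 fold change of 0.075 (edgeR adjusted p = 0.530). With the length of the longest transcript, Gpi1 at 510 TPM stood above Pgam1 at 346 TPM in control. Adpgk, a glucokinase that uses ADP, did not overlap between the groups, at 54.4 ± 5.09 with So(d18:1) against 68.0 ± 6.64 CPM in control (SD, n = 4 each; log2 fold change -0.32, edgeR adjusted p = 0.0100), and fell with every library left out in turn. An exon of Adpgk overlaps Bbs4 on the other strand. Gapdh, which oxidises glyceraldehyde 3-phosphate, had a log2 fold change of 0.057 (edgeR adjusted p = 0.555). At 77.1 TPM in control, Gapdh stood below Tpi1 and Pgk1, the enzymes on either side of it, and stretches found in other genes, above all Gm7336, made up 25.1% of its transcript. Their part in this level was not tested.

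The largest log2 fold change among these 61 genes was that of another transporter. Slc2a6, which encodes GLUT6, a carrier of intracellular membranes, had 25.7, 25.2, 24.4 and 24.0 CPM in control replicates 1 to 4 and 51.1, 46.2, 49.4 and 49.1 CPM in So(d18:1) replicates 1 to 4. Every So(d18:1) library was far above every control. Its log2 fold change of 0.98 (standard error 0.057, edgeR adjusted p = 4.7e-10) lay between 0.96 and 1.01 with a library left out. Per length, Slc2a6 stood at 26.9 TPM in control and 53.2 TPM in So(d18:1) libraries, between Slc2a3 and Slc2a1 in control and above Slc2a1, at 46.8 TPM, with So(d18:1). Slc2a9, a carrier of urate and the most abundant of the other listed transporters in control at 30.4 TPM, had a log2 fold change of -0.056 (edgeR adjusted p = 0.635). The other 7 listed carriers of 10 had too few counts to be tested.

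In the remaining branches of glucose metabolism, single genes are given by list. An unadjusted p under 0.05 in edgeR's test was held by 3393 of all 14514 tested genes, to be set beside such counts below. After adjustment 8.94% of all tested genes changed, with 3.87% higher and 5.07% lower, to be set beside the genes that rose or passed. None of the 8 tested carriers and dehydrogenases of lactate and pyruvate passed edgeR's test after adjustment, and 2 had an unadjusted p under 0.05. Limma-voom called 0 and the Wald test of DESeq2 called 1, Bsg. Library size alone, no filter on low counts and the replicate block also called Bsg. Slc16a3 was called with the block and Ldhb with no filter. Bsg, the chaperone of the lactate carriers and the highest of them at 297 TPM in control, had a log2 fold change of 0.15 (edgeR adjusted p = 0.0528). Of 10 tested genes of the pyruvate dehydrogenase complex and its regulators, 2 rose, Pdk2 and Pdk3, and the highest, Dld, a subunit shared with other complexes, had 0.028 (edgeR adjusted p = 0.776). The 5 regulators of fructose 2,6-bisphosphate did not pass edgeR's test, with 1 at an unadjusted p under 0.05 and 0 called by limma-voom or DESeq2. Pfkfb3 was called with no filter and with the replicate block. Pfkfb4, the highest at 60.6 TPM, had -0.0096 (edgeR adjusted p = 0.930). Of 8 pentose phosphate enzymes, Tkt, the transketolase, rose with 0.16 (edgeR adjusted p = 0.0440), a call that was lost in 7 of 8 fits with a library left out, all but that without So(d18:1) replicate 3, and with limma-voom, upper quartile scaling or 10 counts required in every library. Taldo1, the highest of them at 616 TPM, had 0.14 without overlap between the groups (edgeR adjusted p = 0.107). It passed with no filter and with the replicate block. Of 3 tested gluconeogenesis enzymes, Pcx, the pyruvate carboxylase, rose from 2.22 ± 0.354 to 3.45 ± 0.687 CPM (SD, n = 4 each; log2 fold change 0.63, edgeR adjusted p = 0.0366). The call of Pcx was lost in 6 of 8 fits with a library left out, all but those without control replicate 2 or So(d18:1) replicate 4, and with limma-voom. Pck2, the highest of these at 33.5 TPM, had 0.19 (edgeR adjusted p = 0.0576). It passed edgeR's exact and likelihood ratio tests, and passed with no filter and with the replicate block. None of 10 tested glycogen enzymes passed edgeR's test, with 2 at an unadjusted p under 0.05 and 0 called by limma-voom or DESeq2. Gyg, the highest at 198 TPM, had 0.15 (edgeR adjusted p = 0.205) and passed with no filter on low counts. With the length of the longest transcript, Pygl at 267 TPM stood above Gyg at 187 TPM in control.

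**Figure D5:**
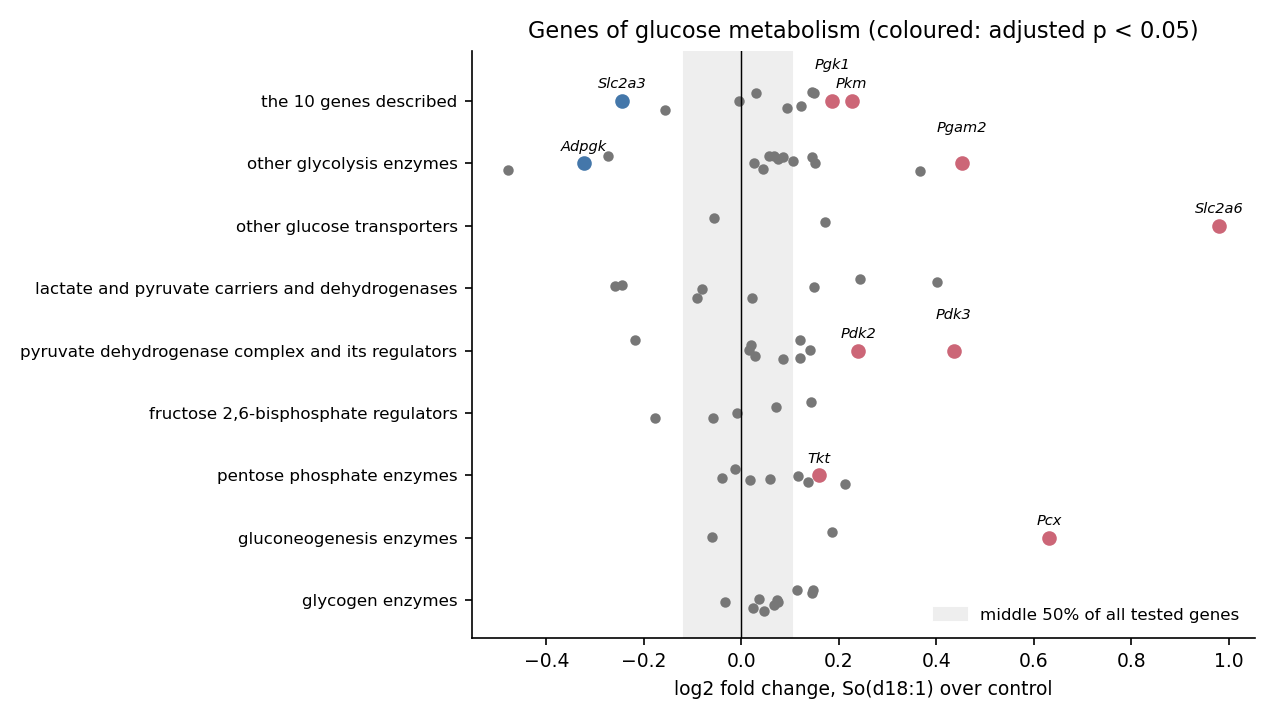
Log2 fold change, So(d18:1) over control (x axis), of the tested genes of glucose metabolism by list (y axis, scattered within a row). Coloured points with names are genes with an adjusted p under 0.05, red higher and blue lower, and the grey band holds the middle 50% of all tested genes. Slc2a6 at 0.98 lies farthest to the right.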

How the data were processed

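Poly(A) RNA of BMDMs was sequenced in 4 control and 4 So(d18:1) libraries, grouped by their treatment label. Per the labels, reads were trimmed with Trim Galore 0.6.7, aligned to mm10 with HISAT2 2.2.1 and counted with featureCounts 2.0.1. The authors deposited whole-number counts per Ensembl gene, not normalized, with a gene length in bases. The annotation release, the strand setting and the handling of multi-mapping reads are not given in the sources used here, and 98.7% of the lengths matched the exons of GENCODE release M21, from which symbols and positions were taken (52081 of 55357 identifiers had a symbol). Identifiers without one held 0.169% to 0.325% of the counts. The symbol Aldoa belongs to a pair of identifiers, and the one with more counts was used.

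Counts were filtered by filterByExpr, scaled by TMM (factors 0.989 to 1.01) and compared with the robust quasi-likelihood fit of edgeR 4.0.16 (R 4.3.3), with Benjamini-Hochberg adjustment over all 14514 tested genes. CPM use the counts of tested genes times the TMM factor. Standard errors were obtained as |log2 fold change| divided by √F, and 95% intervals use the t distribution with the fit's degrees of freedom, unadjusted for the number of genes. Exact permutation tests of CPM were two-sided. The fit was tested on simulated data. The members and lists were chosen with earlier results of these data known. Named were the 10 genes, other pathway genes with an adjusted p under 0.05, the highest gene per length of each list, isozymes, Gapdh and the gene that shares most sequence with a member. Alternatives were size factors and the Wald test of DESeq2 1.42.0, upper quartile scaling, library size alone, other filters, edgeR's exact and likelihood ratio tests, limma-voom (limma 3.58.1), a replicate block, thinned counts, summed near-identical copies (genes sharing at least 1% of a member's 50-base words), longest transcripts and each library left out. Figures were drawn with matplotlib 3.10.9.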

Additional observations from a re-analysis of the deposited data

Results flagged for a closer look

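Dixon's ratio, the distance of an extreme library from its neighbour as a share of the whole range, passed its critical value in 3 of 48 sets of 4 values, where chance gives about 1 in 20, or 2.4. The ratio was 0.848 for Hk2 in So(d18:1) replicate 2, at a log2 CPM of 7.68 against 7.90 to 7.94 in the others. It was 0.868 for Hk1 in So(d18:1) replicate 4, at 6.83 against 6.65 to 6.67. For Tkt in control replicate 4 it was 0.856, at 8.29 against 8.24 to 8.25.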

How the results depend on the processing

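The number of the 10 genes called stayed at 3 under 10 alternatives. It was 6 with no filter on low counts, where the other pathway genes called went from 7 to 14. The calls over all genes also rose with no filter, from 1298 to 1723. Over all tested genes, the correlations of same-numbered libraries were -0.0035, 0.10, 0.033 and 0.0091. There, 3 of 4 control libraries correlated better with another number. In both groups, the median deviation of the 10 genes was negative in replicates 1 and 2 and positive in replicates 3 and 4. Whether equal numbers mark a shared preparation is not given in the labels. With the replicate number as a block, 6 of the 10 genes, 13 of the others and 1784 of all tested genes were called. Standard errors were smaller with the block in all of the 10 genes but Slc2a3, and for Slc2a1 fell from 0.15 to 0.067. Hk2, Aldoa and Eno1 were gained both with no filter and with the block. Under the rule of an unadjusted p below 0.05 with a fold change of 1.5 or more, the counts were 564 of all tested genes, 0 of the 10 and 2 of the others. With a library left out, the counts at an adjusted p under 0.05 ranged from 815 to 1370 of all tested genes, from 1 to 5 of the 10 and from 3 to 9 of the others. The sign of Ldha turned with library size alone (0.00098), limma-voom (0.0021), the replicate block (0.0018) and thinned counts (0.0060), and with a library left out Ldha ranged from -0.066 to 0.083 and Tpi1 from -0.016 to 0.089. The cause of these shifts was not tested. With 4 libraries per group, log2 fold changes such as 0.15 for Aldoa (standard error 0.054) and -0.16 for Hk2 (0.069) did not pass adjustment over all genes.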
